A study of Mus musculus with 6 samples.

Results

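The genes described here encode the proteins of the cytosolic ribosome, which build its large (Rpl) and small (Rps) subunits around the ribosomal RNAs. They were taken by symbol from the mouse GENCODE M21 annotation as protein-coding genes named Rpl or Rps with a number, together with Rplp0, Rplp1, Rplp2, Rpsa and Fau, leaving out the S6 kinase genes and symbols that mark a pseudogene. The rule found 87 of the 55487 genes in the deposited table, 52 named for the large and 35 for the small subunit. Of these, 78 are the standard ribosomal proteins, 8 are paralogues that stand in for or resemble a standard protein, and 1, Rps19bp1, encodes a protein that binds Rps19 and regulates the deacetylase Sirt1 and is not a part of the ribosome. RNA came from mouse oocytes in 3 control and 3 metformin libraries. The series title names aged mice; the labels give no age, strain, genotype or number of oocytes per library. In both groups females were primed with PMSG, a gonadotropin (10 IU), and germinal-vesicle oocytes collected 46 to 48 h later were freed of cumulus cells and cultured for 16 h in M16 medium to metaphase II, without metformin in the control group and with it in the other. The protocol lists 10, 20 and 50 μM, and which of these the sequenced oocytes received is not stated in the labels. In bulk libraries, fewer cells of a type and less RNA per cell cannot be told apart.

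Ribosomal protein mRNAs of vertebrates begin with a 5′ terminal oligopyrimidine (TOP) tract, a C followed by a run of C and U, through which the kinase complex mTORC1 and the RNA-binding protein Larp1 set their translation. Growing oocytes stockpile ribosomes and then fall transcriptionally silent, and in mouse and frog oocytes ribosomal protein mRNAs are among those that lose their poly(A) tails or decline during maturation. Metformin inhibits mitochondrial complex I and, by way of the energy sensor AMPK, can lower mTORC1 activity. The libraries were primed on poly(A), so a message with a shortened tail may be captured less well.

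The sequences that matter most for what follows are those of the paralogues, because the reads of a paralogue can be told from those of its parent only where the letters differ. The coding sequences of Rps27 (chr3:90212725-90213615, minus strand) and Rps27l (chr9:66946175-66949357, plus strand), read from the GENCODE M21 transcripts on GRCm38, are both 255 bases long and differ at 61 of them, shown in capitals.
Rps27: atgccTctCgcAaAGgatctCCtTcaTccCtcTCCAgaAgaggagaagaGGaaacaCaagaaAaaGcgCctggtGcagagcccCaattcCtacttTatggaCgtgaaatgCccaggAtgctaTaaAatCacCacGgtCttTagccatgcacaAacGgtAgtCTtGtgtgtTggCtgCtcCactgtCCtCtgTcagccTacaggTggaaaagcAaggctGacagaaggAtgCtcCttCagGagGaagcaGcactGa
Rps27l: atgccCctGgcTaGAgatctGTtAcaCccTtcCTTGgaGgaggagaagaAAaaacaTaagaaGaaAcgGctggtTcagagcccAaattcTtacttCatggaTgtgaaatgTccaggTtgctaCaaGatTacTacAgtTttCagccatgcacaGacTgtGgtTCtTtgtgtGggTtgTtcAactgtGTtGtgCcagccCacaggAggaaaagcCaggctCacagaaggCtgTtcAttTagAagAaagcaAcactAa
They match at 76.1% of positions, and the longest stretch without a difference is 11 bases. The retrogene Rps27rt on chromosome 9 has a coding sequence identical to that of Rps27 over all 255 bases, so reads that lie within these coding sequences cannot be told apart.

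The coding sequences of Rpl39 (chrX:37082701-37085127, minus strand), whose small protein lines the exit tunnel of the ribosome, and of Rpl39l (chr16:10174310-10174465, plus strand), its paralogue of male germ cells, are 156 bases long and differ at 23, again in capitals.
Rpl39: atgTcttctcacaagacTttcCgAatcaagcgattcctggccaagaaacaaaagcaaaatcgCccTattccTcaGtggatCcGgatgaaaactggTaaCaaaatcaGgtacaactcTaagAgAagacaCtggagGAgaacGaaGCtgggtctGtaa
Rpl39l: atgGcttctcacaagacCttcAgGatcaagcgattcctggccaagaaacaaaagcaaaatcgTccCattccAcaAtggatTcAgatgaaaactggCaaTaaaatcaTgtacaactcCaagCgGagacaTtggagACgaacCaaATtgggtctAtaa
The identity was 85.3% and the longest identical stretch 38 bases.

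The libraries held between 8622281 and 10588292 counted reads. Levels in CPM are read counts scaled to the TMM-adjusted library size. The floor of 3 reads was instead scaled to the unadjusted total counts, and stood between 0.283 and 0.348 CPM. All 12 oocyte markers were present, and their levels added up to 29474 ± 1163 CPM (control) and 30718 ± 4504 CPM (metformin; SD, n = 3). Of 16 cumulus and granulosa markers 13 had a read, and Amh, Foxl2 and Ptx3 were at 0. Their summed level ran from 1394 to 1561 CPM in control and from 1189 to 1677 CPM in metformin libraries. Serpine2 alone supplied most of it, averaging 1387 CPM over the controls and 1377 CPM after metformin. Cyp19a1, Nr5a2 and Kitl had group means between 9.56 and 41.8 CPM. Group means of the remaining markers with a read were at most 0.626 CPM. Control replicate 1 stood apart, with 281 reads of the haemoglobin genes and 45 of the collagen genes Col1a1 and Col1a2, against 0 to 2 and 0 to 4 in the others.

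The 87 genes together drew only a small part of the reads. They made up 0.163%, 0.162% and 0.160% of the counts of control replicates 1 to 3 and 0.173%, 0.174% and 0.182% of those of metformin replicates 1 to 3. On this scale every metformin library lay above every control library. On TMM-scaled levels the groups overlapped, the sums being 1588, 1575 and 1671 CPM for the controls and 1632, 1738 and 1969 CPM after metformin. The group means were 1612 ± 52.3 and 1780 ± 172 CPM (SD, n = 3), a ratio of 1.10. The 78 mitochondrial ribosomal protein genes drew 0.198% of control and 0.202% of metformin counts, and the 50 proteasome subunit genes 0.510% and 0.515%. Annotated copies of the 87 genes, described below, held 0.201% of control and 0.203% of metformin counts on average and are not in the share of the 87. Copies of the mitochondrial and proteasome genes were not counted, so these shares do not rank the families.

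A single paralogue, Rps27l, supplied a large part of this sum. It drew 26.97%, 28.3% and 29.3% of the reads of all 87 genes in control replicates 1 to 3 and 27.8%, 27.4% and 38.6% in metformin replicates 1 to 3. Only metformin replicate 3 departed from the others. Without Rps27l the sum was 1157 ± 26.1 CPM for controls and 1217 ± 41.8 CPM after metformin (SD, n = 3), a ratio of 1.05, and the share of counts no longer separated the groups, at 0.113% to 0.119% in control and 0.112% to 0.126% in metformin libraries.

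**Figure D1:**
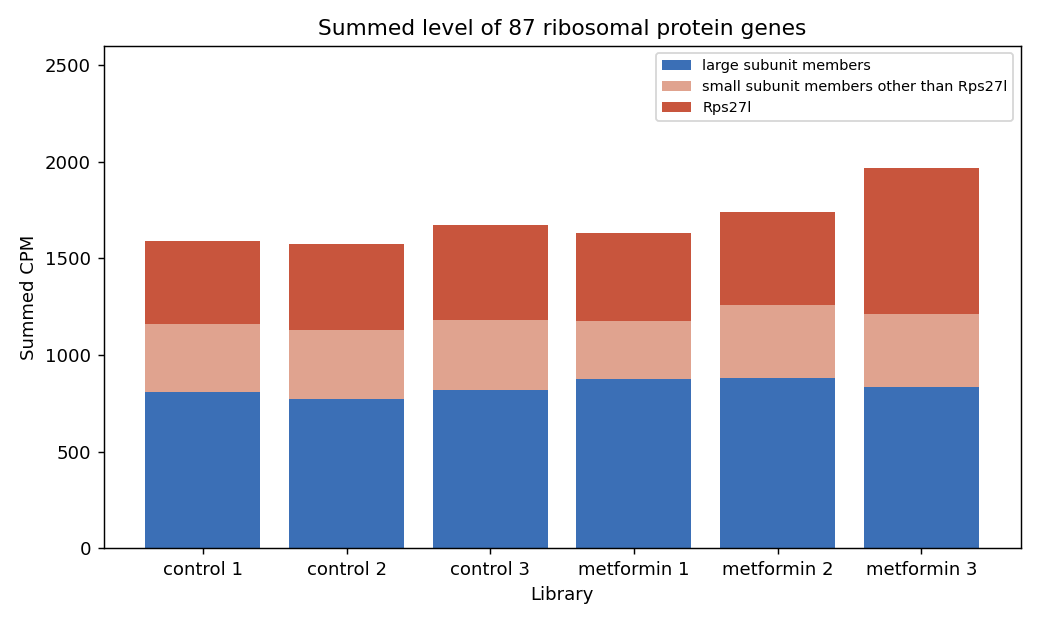
Summed CPM of the 87 ribosomal protein genes in each library, stacked as the members named for the large subunit, those named for the small subunit other than Rps27l (with Rps19bp1 among them) and Rps27l. The Rps27l block is 759 CPM in metformin replicate 3 and 428 to 490 CPM in the other libraries.

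The levels of the individual genes were far from even, although the standard proteins enter the ribosome in fixed proportions. Between genes they were compared per length, first on the deposited FPKM and then as CPM per kilobase of merged exon. The second scale was needed because the length behind the deposited FPKM equals the summed length of all distinct annotated exons for 97.7% of 4857 well-covered genes (within 1%), which counts overlapping exons of different isoforms more than once. For the 86 genes with reads, that length was between 1.00 and 3.54 times the merged exon length, with a median of 1.58, so the FPKM of genes with many annotated isoforms is the lower for it. The median over the 87 genes was 1.30 FPKM (quartiles 0.414 and 5.38), and 39 stood under 1 FPKM while 13 stood above 10. As CPM per kilobase the median was 1.98, with quartiles of 0.686 and 8.40. Of the 10 highest genes by FPKM, 8 were also among the 10 highest by CPM per kilobase. The median FPKM of the 68 members that were tested was 2.94, beside 2.52 over all 12793 genes tested. Over the 4857 well-covered genes the length behind FPKM had a median of 1.33 times the merged length, against 1.58 for the members. This comparison may therefore place the members too low, and the median of all genes per kilobase of merged exon was not taken.

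**Figure D2:**
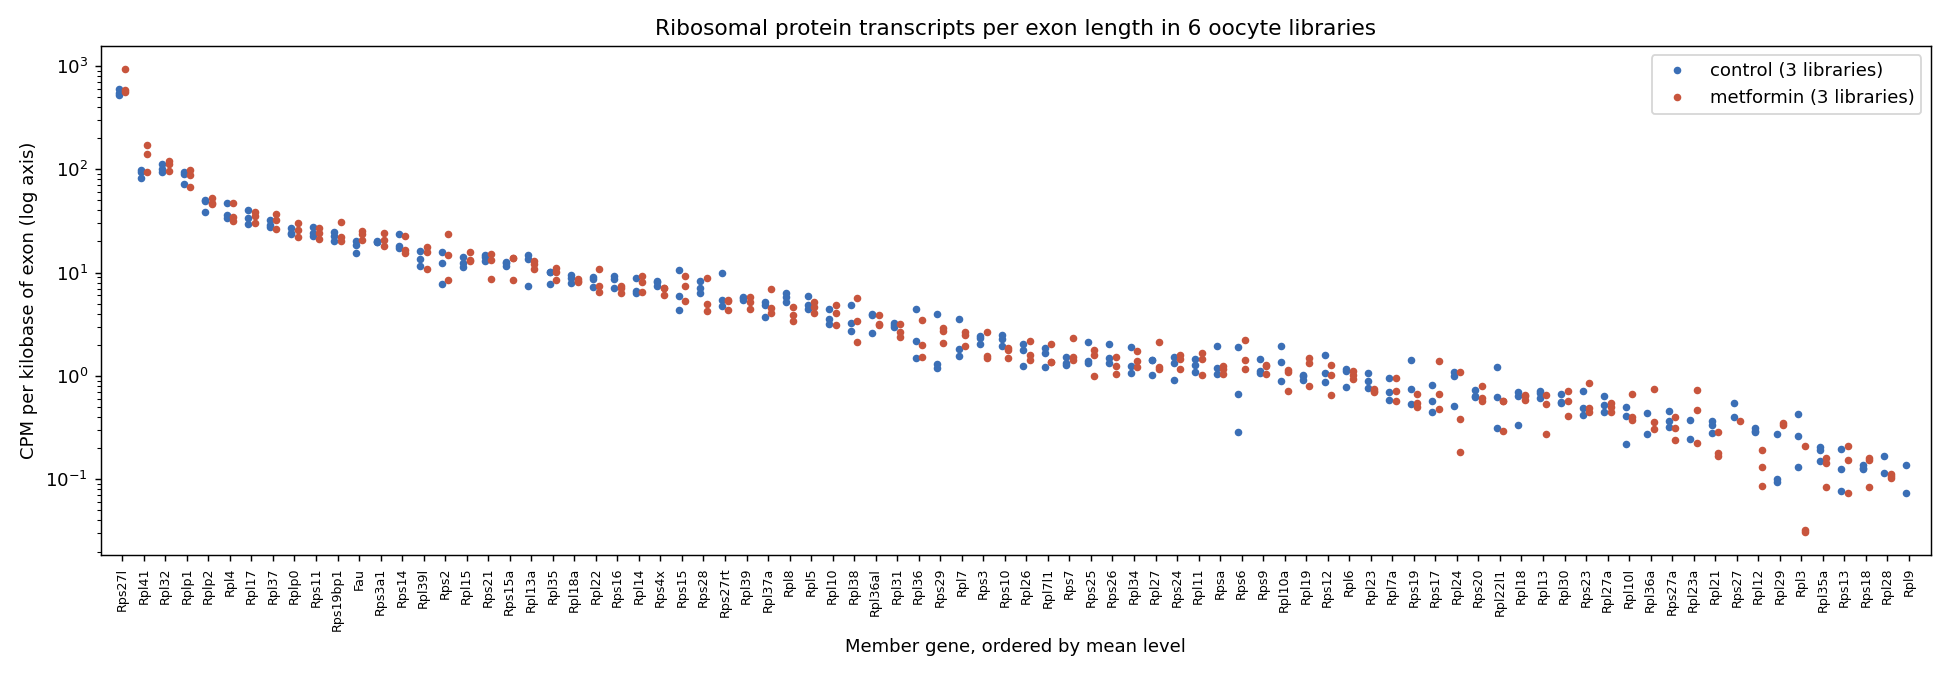
CPM per kilobase of exon (log axis) of the ribosomal protein genes with reads that are reported by name, ordered by mean level, with each dot 1 library (control blue, metformin red). Libraries with no read of a gene are not drawn. Rps27l stands above all others at a mean of 624 CPM per kilobase, 5.52 times the next gene, and 27 of the 87 genes are under 1, among them Rpl3l at 0, which is not drawn.

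Rps27l, a paralogue of Rps27 that is induced by p53 in other cells, was the highest on both scales (ENSMUSG00000036781, GRCm38 chr9:66946086-66949516, plus strand). Its read counts were 4074, 3941 and 4745 in control and 4773, 4857 and 7420 in metformin libraries. The lowest 5 of these values lie close together and the metformin replicate 3 value is well above them. At 239 ± 8.11 FPKM in control and 291 ± 67.3 FPKM in metformin libraries (SD, n = 3) it ranked 127 among 21974 protein-coding genes. The next by FPKM was Rplp1 at 84.3 on average over the 6 libraries, 3.15 times lower.

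Its parent Rps27 was near the floor. Rps27 (GRCm38 chr3:90212522-90213651, minus strand) had 0, 5 and 4 reads in control and 4, 0 and 0 in metformin libraries. The retrogene Rps27rt (GRCm38 chr9:114982366-114982739, minus strand) had 35, 18 and 17 reads in control and 17, 20 and 20 in metformin libraries. Per kilobase of exon the averages were 624 CPM for Rps27l, 5.84 CPM for Rps27rt and 0.217 CPM for Rps27. Rps27l also had far more reads in every library than Rps27 and Rps27rt had in sum, which is the comparison left where their coding sequences are the same.

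The starts of the pair also differ. The windows below run from 30 bases before to 25 bases after the RefSeq start on GRCm38.p6 (chr3:90213624-90213678, minus strand, and chr9:66946056-66946110, plus strand), with the longest pyrimidine run that begins with C within 5 bases of the start in capitals. They are shown because a TOP tract is the element that ribosomal protein mRNAs share.
Rps27: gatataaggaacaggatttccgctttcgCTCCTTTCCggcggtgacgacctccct
Rps27l: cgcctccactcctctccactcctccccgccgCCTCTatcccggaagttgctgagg
The run is 9 bases long in Rps27 and 5 in Rps27l.

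Over all 67 members with a RefSeq promoter window (250 bases before to 50 after the start), a run of at least 8 bases was present in 22, or 32.8%, beside 5.17% of 27025 genes with a window. A run of at least 5 bases was present in 46.3%, beside 21.2%. Both were searched only within 5 bases of the annotated start. A tract at a start that lies elsewhere would be missed, so members without a run may still carry one. The letters CCGGAAG, the core of ETS-family sites, were found on either strand in 38.8% of members and 9.93% of all genes, and AAGATGGC, the core of YY1 sites, in 10.4% and 3.19%. The motifs were searched separately and may overlap, and a match is a description of the letters only. The 22 members with the longer run had a median of 1.38 CPM per kilobase (quartiles 0.593 and 9.11) and the 45 without it 2.09 (quartiles 1.03 and 7.66).

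Reads of the other paralogues were divided in different ways. Rpl39l had 106, 86 and 130 reads in control and 95, 133 and 144 in metformin libraries, above the 79, 72 and 75 and the 67, 84 and 73 reads of Rpl39. Per kilobase, Rpl39l averaged 14.3 CPM and Rpl39 5.38 CPM. The order of the read counts rests on leaving out annotated copies. With the reads of its copies added Rpl39 had 695 reads over all libraries against 694 for Rpl39l, and Rpl39l was the higher in 2 of 6 libraries. No copy of Rpl39l matched over at least 150 bases. Rpl36al, a retrogene, averaged 3.42 CPM per kilobase and its X-linked parent Rpl36a 0.354, with 34 to 51 reads per library against 0 to 13. With copies added to both, it had 56 to 81 reads per library against 18 to 41. About 24.5% of the exon length of Rpl36al is also exonic in Gm49383, so its reads are less certain.

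**Figure D3:**
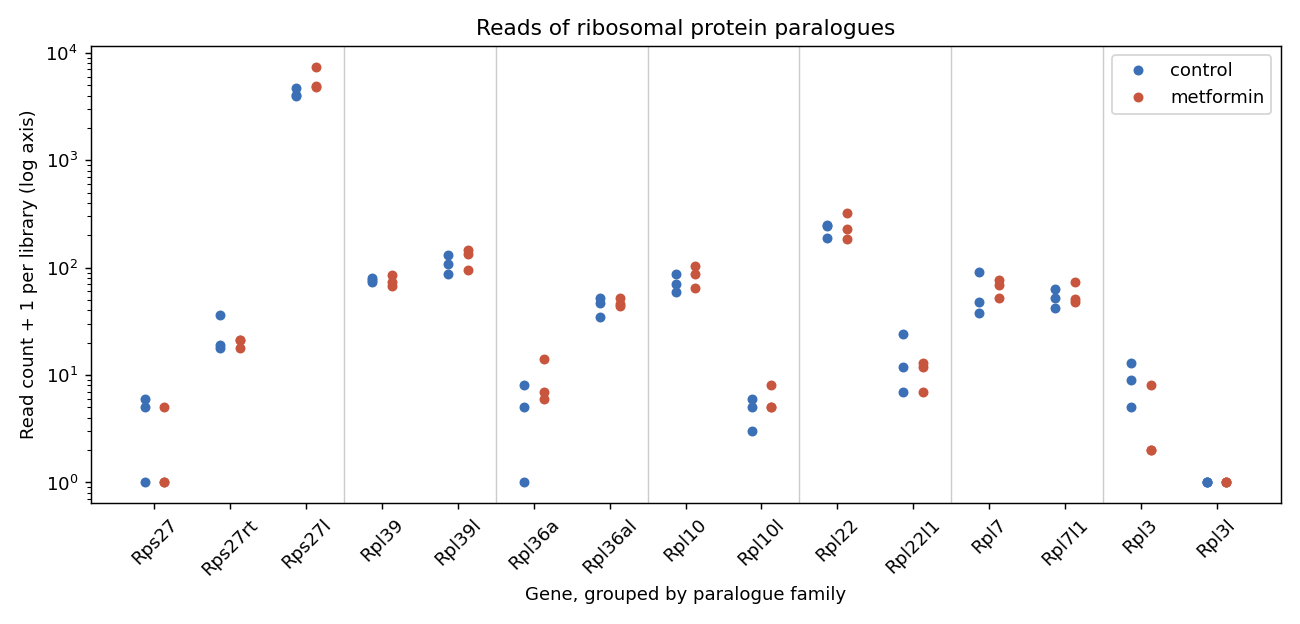
Read count + 1 (log axis) of the paralogue families in each library, control blue and metformin red. Reads of annotated copies are not included. Rps27l, Rpl39l and Rpl36al lie above their parents in all 6 libraries, which for Rpl39l holds in 2 of 6 once copies are added, whereas Rpl10l and Rpl22l1 lie below theirs and Rpl3l is at 0.

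The remaining pairs went the other way or were level. The X-linked Rpl10 had 58 to 102 reads per library and its autosomal germ-cell retrogene Rpl10l 2 to 7. Rpl22 had 184 to 321 reads and Rpl22l1 6 to 23. Rpl7 and Rpl7l1 averaged 2.33 and 1.59 CPM per kilobase, and Rpl7l1 had more reads in 2 of 6 libraries, or 0 with copies added. Rpl3, which binds early in large-subunit assembly, had 8, 12 and 4 reads in control and 7, 1 and 1 in metformin libraries. Its muscle paralogue Rpl3l had 0 in all 6, which allows up to 0.348 CPM at the lowest depth, scaled to unadjusted total counts. X-linked Rps4x, for which the rule found no paralogue, stood at 13.03 ± 0.736 CPM for controls and 11.0 ± 1.02 CPM after metformin (SD, n = 3), with no overlap.

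Among the standard proteins, the acidic stalk of the large subunit, to which elongation factors bind, was well represented. Rplp1 stood at 85.4 ± 11.3 and 83.1 ± 13.9 FPKM in control and metformin libraries, Rplp2 at 33.8 ± 4.28 and 35.3 ± 0.854 FPKM, and their anchor Rplp0 at 14.8 ± 0.483 and 15.1 ± 1.31 FPKM (SD, n = 3). Rpl32 reached 80.0 ± 4.40 and 84.1 ± 7.71 FPKM, and Rpl41, the smallest ribosomal protein, 32.5 ± 2.88 and 48.7 ± 16.7 FPKM. Rpl4 and Rpl17, which line the exit tunnel, stood at 29.6 and 29.0 FPKM over all libraries, and Rps3a1 and Rpl37 at 20.4 and 15.9 FPKM. Rps19bp1, which is not a ribosomal protein, stood between these at 16.9 FPKM. In the order of mean FPKM, values of single libraries overlapped between Rplp1 and Rpl32, between Rpl41 and Rplp2, between Rpl4 and Rpl17 and between Rps19bp1 and Rpl37. They did not overlap between Rps27l and Rplp1, between Rpl32 and Rpl41 or between Rpl17 and Rps3a1. The place of Rpl41 depends on the length used. As CPM per kilobase it averaged 113, above Rpl32 at 106 and Rplp1 at 84.7. About 20.0% of the exon length of Rpl32 is also exonic in Cand2 or a small RNA gene, so its reads are less certain.

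Other members with known roles ranged widely. Rps14, a small-subunit protein, stood at 13.1 ± 1.69 and 11.9 ± 1.54 FPKM in control and metformin libraries. Rpl5 and Rpl11, which form a particle with 5S RNA and can bind Mdm2, stood at 3.62 and 0.788 FPKM over all libraries, and 26.7% of the exon length of Rpl5 overlaps Fam69a or a small RNA gene. Rps6, the substrate of the S6 kinases, stood at 0.823 FPKM, and Rpsa at 0.899. Rps19, which is mutated in Diamond-Blackfan anaemia in humans, stood at 0.590 FPKM. Rpl13a stood at 4.53 FPKM, and 35.4% of its exon length overlaps Gm45713 or a small RNA gene. Of the genes that fuse a ubiquitin-like or ubiquitin domain to a ribosomal protein, Fau stood at 6.76 and Rps27a at 0.249 FPKM. The lowest members tested, Rpl22l1, Rpl27a, Rpl13, Rpl30 and Rpl18, lay between 0.268 and 0.403 FPKM. A further 19 members had too few reads to be tested; Rpl3l had none and the others at most 56 over all libraries.

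Many reads were listed under annotated copies of these genes, so the count of a gene alone may not give the level of its mRNA. The transcripts of 1157 copies in the table (pseudogenes and coding retrogenes outside the rule) matched a member at 90% identity or more over at least 150 bases, and 81 of 87 members had such a copy. Together the copies held 118558 reads over the 6 libraries and the members 99317. For 55 members the copies held more reads than the gene. Of the 1157 copies, 746 had at least 1 read. The exons of 40 copies overlap those of another gene that is no pseudogene, so some of their reads may come from that gene. The ratio of copy to member reads was 1.25 ± 0.0774 in control and 1.15 ± 0.0757 in metformin libraries (SD, n = 3). How reads that match several places were counted is not given in the sources used here, and a read may have been counted at more than 1 copy.

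Some copies carried far more reads than the parent. The Rpl10 gene had 466 reads in all libraries and its copies 10360, of which Rpl10-ps5 had 5706 at 99.5% identity over 642 bases. Rpl37 had 3033 reads and the transcribed retrocopy Rpl37rt 11295. Rpl5 had 1113 reads and Gm15500, identical to it over 1018 bases, 6749. Rpl29 had 13 reads and its copies 1547. Rpl9 was listed with 6 reads, all in control libraries, and its copies with 320.

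Several of the highest genes had few reads in copies. Rps27l had 29810 reads and its copies 1107, Rpl32 had 5990 and 252, and Rplp2 had 5745 and 30. Rpl41, Rpl8, Rpl39l, Rps19bp1 and Rpl3l were among the members with no copy by this rule. Rpl17, which is among the 10 highest genes by FPKM as Rpl37 is, had 2686 reads and its copies 7830. For members with many reads in copies, the 55 and others such as Rpl39, the place in the order of levels is uncertain.

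**Figure D4:**
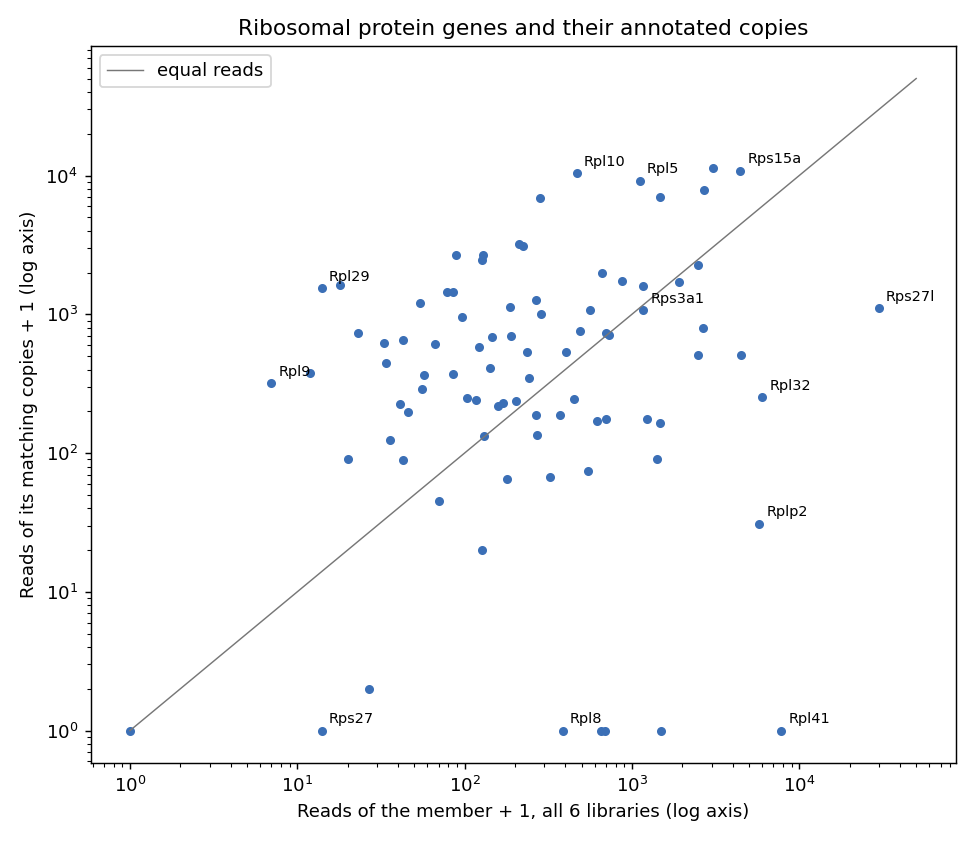
Reads of each member (horizontal) and of its matching annotated copies (vertical), each plus 1 and summed over the 6 libraries, on log axes. The 55 genes above the line have more reads in their copies than in the gene; Rps27l, Rpl32, Rplp2 and Rpl41 lie below it.

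The comparison of metformin with control libraries asked which transcripts differ after maturation with the drug. Of the 68 members tested, 0 passed the threshold (edgeR's quasi-likelihood test, adjusted p under 0.05 over all genes), beside 0.0391% of the 12793 genes tested (0.0235% higher and 0.0156% lower). At an unadjusted p under 0.05 there were 2 members, Rpl41 and Rpl8, beside 1.5% of all genes. DESeq2 called 0 members, beside 0.0704% of all genes, and limma-voom also 0. The fit placed 34 members above and 34 below the controls, beside 6715 above and 6078 below among all genes tested. The median log2 fold change of members was -0.00 (quartiles -0.18 and 0.11), beside 0.01 (quartiles -0.11 and 0.13) over all genes. The fitted log2 fold change lay within 0.5 of 0 for 62 of the 68, with a median SE of 0.253. Groups did not overlap for 5 members, 1 higher and 4 lower, which is 7.35% beside 5.63% of all genes (2.84% higher and 2.79% lower). With the reads of copies summed there were 4 of 84 members, 2 higher and 2 lower, or 4.76% beside 5.62% of all genes.

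Genes of the 2 subunits were compared as well. Of 39 large-subunit members tested, 24 had a fitted value above 0 and 15 below, around a median log2 fold change of 0.02. Of 29 named for the small subunit, 10 lay above 0 and 19 below, around a median of -0.10; the difference between subunits was not tested. Large-subunit members added up to 801 ± 24.0 CPM for controls and 865 ± 24.5 CPM after metformin (SD, n = 3), with no overlap. Without Rpl41 it was 695 ± 15.6 and 707 ± 27.2 CPM, with overlap. The sum of members named for the small subunit without Rps27l, with Rps19bp1 among them, was 356 ± 4.95 and 352 ± 41.2 CPM.

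**Figure D5:**
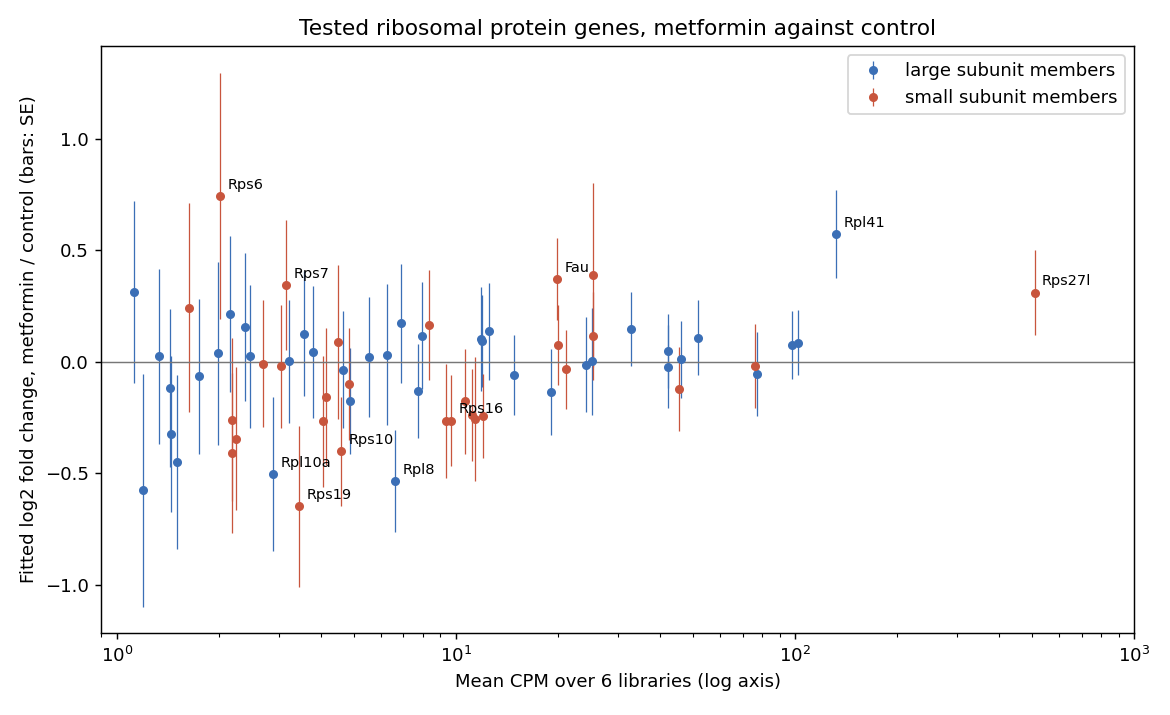
Fitted log2 fold change (metformin over control, bars SE) of the 68 tested members against mean CPM (log axis). Members named for the large subunit are blue and those named for the small subunit red, with Rps19bp1 among the latter. The members scatter around 0, and none passed the threshold; Rpl41 stands at 0.57 and Rps27l, the most abundant, at 0.31.

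On the higher side, the smallest p-values belonged to Rpl41, Fau, Rps27l, Rps6 and Rps7. Rpl41 (GRCm38 chr10:128548114-128549305, minus strand) has no overlapping gene and no copy that matches over at least 150 bases. Shorter copies were not counted, so its reads may still be shared with some. It stood at 114, 95.1 and 110 CPM in the controls and at 198, 166 and 110 CPM in metformin replicates 1 to 3. Metformin replicates 1 and 2 were above all controls and replicate 3 was among them. Its log2 fold change was 0.57 (SE 0.198, unadjusted p = 0.0142, adjusted p = 1.00, edgeR) and 0.38 without metformin replicate 1. Without metformin replicate 3 it was 0.78, with an adjusted p of 0.282 (edgeR). Fau (GRCm38 chr19:6057844-6059524, plus strand) stood at 19.6, 17.6 and 14.8 CPM in the controls and 22.8, 19.9 and 24.5 CPM after metformin, so all metformin values were higher. The log2 difference was 0.37 with SE 0.185 (adjusted p = 1.00, edgeR), and 0.22 with the reads of its copy added.

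For Rps27l the log2 difference was 0.31 with SE 0.190 (adjusted p = 1.00, edgeR) and 0.03 without metformin replicate 3. Rps6 stood at 1.05, 0.452 and 3.00 CPM in the controls and 3.52, 2.26 and 1.84 CPM after metformin. The groups overlap, and the log2 difference of 0.74 became 0.06 with copies summed, 0.33 without control replicate 2 and 1.73 without control replicate 3. Rps7 stood at 2.78 ± 0.240 and 3.53 ± 0.988 CPM (SD, n = 3), and its log2 difference of 0.34 turned to -0.13 with copies summed.

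On the lower side, the smallest p-values belonged to Rpl8, Rps19, Rps10, Rpl10a and Rps16. Rpl8 (GRCm38 chr15:76904078-76906314, plus strand), a protein near the peptidyl transferase centre, stood at 7.88, 7.01 and 8.57 CPM in the controls and 4.66, 5.30 and 6.24 CPM after metformin, with no overlap. Its log2 fold change was -0.54 (SE 0.227, unadjusted p = 0.0368, adjusted p = 1.00, edgeR). Rps19 stood at 6.62, 2.49 and 3.51 CPM in the controls and 3.14, 2.36 and 2.56 CPM after metformin. Its highest value is that of control replicate 1, and its log2 fold change of -0.65 became -0.17 without that library.

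Rps10 stood at 5.21 ± 0.624 and 3.94 ± 0.449 CPM, without overlap, and 28.7% of its exon length is shared with another gene. Its log2 difference of -0.40 became 0.0065 with copies summed. Rpl10a stood at 3.39 ± 1.28 and 2.38 ± 0.560 CPM and Rps16 at 10.6 ± 1.37 and 8.81 ± 0.678 CPM (SD, n = 3). The other members without overlap were Rps4x, given above, and Rpl23, at 1.61 ± 0.275 and 1.28 ± 0.0518 CPM. Rpl23 was chosen after its values were seen, to complete the 5.

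Control replicate 1 was the library with the highest level for 22 of the 68 members tested, or 32.4%, beside 13.7% of all genes tested. Among the 31 tested members with fewer than 300 reads in all, it was the highest for 16, and their summed level was 106 CPM there and 77.0 to 88.2 CPM in the other 5 libraries. The share among other genes with as few reads was not taken, so this count is not shown to be particular to the members. The same library held the haemoglobin and collagen reads, and its blood and immune markers summed to 36.0 CPM against 3.05 to 4.24 CPM in the others. The part of these other cells in the levels of the low members was not tested. Without control replicate 1, 0 of 72 members passed, by edgeR, and the median log2 fold change was 0.05.

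The other genes of ribosome production and use were taken as 7 lists of 142 genes, of which 131 were tested and 0 passed (edgeR), beside the same 0.0391% of all genes; 0 had an unadjusted p under 0.05, and DESeq2 called 0. The 17 genes of translation factors and other TOP mRNAs had a median log2 fold change of 0.01, with the elongation factor gene Eef2 at 75.03 ± 7.26 CPM for controls and 66.8 ± 2.93 CPM after metformin and Eef1g at 2.00 ± 0.698 and 1.51 ± 0.309 CPM. Of 16 tested genes of TOP mRNA binding and mTORC1 signalling, 7 lay above 0 and 9 below (median -0.02), with the RNA-binding protein genes Tial1 at 23.6 ± 8.47 and 18.2 ± 2.75 CPM and Tia1 at 1.35 ± 0.354 and 0.832 ± 0.489 CPM (SD, n = 3).

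Of 34 small-subunit assembly genes 20 lay above 0 (median log2 fold change 0.05). The methyltransferase gene Emg1 stood at 5.52 ± 0.409 and 7.40 ± 0.798 CPM and the nuclease gene Nob1 at 6.17 ± 1.92 and 4.25 ± 0.907 CPM. Of 36 large-subunit assembly genes 25 lay above 0 (median 0.05). Among all 12793 genes tested, 6715 lay above 0. Ebna1bp2 stood at 85.8 ± 6.41 and 97.2 ± 12.2 CPM, and the giant ATPase gene Mdn1 at 1.21 ± 0.177 and 1.79 ± 0.918 CPM. Of 13 genes of RNA polymerase I and its factors 8 lay below 0 (median -0.13), among them Polr1e at 4.42 ± 1.02 and 3.13 ± 0.726 CPM and Polr1c at 2.60 ± 0.394 and 1.88 ± 0.238 CPM.

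Of 5 tested chaperones of single ribosomal proteins 4 lay above 0, with Tsr2, which escorts Rps26, at 1.67 ± 0.468 and 1.31 ± 0.375 CPM and Heatr3 at 8.29 ± 1.81 and 9.58 ± 2.52 CPM. The 10 genes of ribosome rescue and quality control were divided 5 to 5, with the ubiquitin ligase gene Rnf10 at 37.1 ± 12.4 and 28.6 ± 4.02 CPM and Ccdc124 at 4.37 ± 0.767 and 3.39 ± 1.00 CPM (SD, n = 3). The median log2 fold change was 0.01 for the mitochondrial ribosomal proteins and -0.00 for the proteasome subunits.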

How the data were processed

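RNA sequencing counts from 6 mouse oocyte libraries were analysed. Per the labels' protocols library construction used the SMART-Seq HT kit; it primes on poly(A) and keeps neither strand nor molecular identifiers. Per the submitters' processing notes, TopHat2 2.0.6 and CASAVA 1.8 were used with mm10. Which program counted the reads, on which annotation, and what it did with reads matching several genes was not given in the sources used here. For each gene the authors deposited raw read counts and FPKM, per the file headers. Each column was assigned by the letter and number it shares with a sample title. Symbols, exons and transcripts are those of GENCODE M21 (GRCm38, equivalent to mm10), and promoter windows from RefSeq on GRCm38.p6; symbols were found for 55227 of 55487 identifiers.

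Deposited counts of all 6 libraries were tested by the robust quasi-likelihood method of edgeR 4.0.16 in R 4.3.3. Scaling was TMM, low genes were removed by filterByExpr with a minimum count of 10, and the model held only the group. Adjustment was Benjamini-Hochberg over the 12793 genes tested, with a threshold of 0.05. SE values were obtained from the fold change and the square root of F. FPKM entered no test. CPM per kilobase uses merged exon length. Copies were matched with BLAST 2.17.0. DESeq2 1.42.0 and limma-voom (limma 3.58.1), other scalings and filters, copies summed with their parent, each library left out and the replicate number as a block were alternatives. The script was tested on simulated counts.

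Errors are SD over 3 libraries. The labels do not say whether samples came from separate animals or pools, so p-values reflect only how much these samples vary, which may be technical. Floors cover counting error only. There is no spike-in. Some members entered every fit, sum and count but are not reported by name here. The members, lists and alternatives were chosen with earlier results of these data known. The named genes were the 10 highest and the 5 lowest tested members by FPKM, the 5 smallest p-values in each direction, the paralogue pairs, 12 reference members and the 2 smallest p-values of each other list.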

Additional observations from a re-analysis of the deposited data

How the results depend on the processing

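The count of members that passed was 0 under all 18 alternatives: RLE, upper-quartile and library-size scaling, no filter, a mean of at least 10 CPM, copies summed, the replicate block, DESeq2, limma-voom, the non-robust fit, a threshold of 0.10, the standard proteins only, and each library left out. The other ribosome genes gave 0 under each alternative run. The number of members without overlap was 5 of 68 and, with copies summed, 4 of 84 (2 higher and 2 lower, 4.76% beside 5.62% of all genes). It fell to 2 of the 28 members left at a mean of at least 10 CPM, where fewer genes were tested (7.14% of members beside 4.01% of all genes). It ran from 8 to 15 with 1 library left out, where fewer samples separate more easily, which is 11.1% to 20.8% of members beside 12.6% to 17.3% of all genes. The median log2 fold change ran from -0.072 to 0.047 with 1 library left out. With copies summed, Rps7 turned to -0.13 and Rps10 to 0.0065 on the log2 scale, since most reads then came from copies; neither was called under any setting. The ratio of summed levels stayed between 1.05 and 1.15; leaving out Rps27l there, and adding copies to the paralogue counts, were chosen after seeing the data. Same-numbered libraries deviated together with correlations of 0.144, 0.0441 and 0.2, so the numbers were not taken to pair samples, although each sample correlated best with its own number. With the replicate block 0 members and 7 of all genes passed, and the median of members was -0.01. At this depth members under a few CPM have wide errors, with SE up to 0.552.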
